A study of Mus musculus with 6 samples.

Results

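Helios-negative regulatory T cells, defined here by 0 unique molecular identifiers (UMIs) of both Ikzf2 and Nrp1, were set against Helios-high regulatory T cells with at least 3 UMIs of Ikzf2. Both were taken from the cells of the deposited single-cell count table that had 2000 to 4000 UMIs, under 10% of UMIs from mitochondrial genes and 0 UMIs of Cd79a, Lyz2 and Cd8a, markers of B cells, myeloid cells and CD8 T cells. Of 10685 cells in the table, 5039 lay in the depth range and 4788 met every condition. Of these, 903 (18.9%, exact binomial 95% interval 17.8 to 20%) were Helios-negative and 1795 (37.5%, 36.1 to 38.9%) were Helios-high. The other 2090 belonged to neither class. They comprised 245 cells with no Ikzf2 UMI but at least 1 of Nrp1, 1010 cells with 1 UMI of Ikzf2 and 835 cells with 2. Since Ikzf2 and Nrp1 chose the classes, neither is a finding below.

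The cells were EGFP+ regulatory T (Treg) cells of mouse spleen. The animals were on the C57BL/6 background, 18 to 21 weeks old, and had received tamoxifen. The 6 samples were 3 from Bach2fl/fl Foxp3EGFP-Cre-ERT2 mice, in which tamoxifen deletes the loxP-flanked Bach2 in cells that express Foxp3, and 3 from Bach2+/+ Foxp3EGFP-Cre-ERT2 mice. All 6 thus shared the reporter, the Cre recombinase driven from the Foxp3 locus and the tamoxifen. The table's columns fall into 6 barcode sets, named by a suffix from 1 to 6, and no name ties a set to a sample. The genotypes were therefore not compared, and the sets were not treated as replicates of a group: the table counts as 1 sample, there is no test and no p-value, and each class was compared with the other inside the same set. Intervals cover counting error only.

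Helios, the product of Ikzf2, is a zinc finger factor of the Ikaros family and is carried by most Treg cells that arise in the thymus. Neuropilin-1, the product of Nrp1, is a surface receptor long used beside it to mark thymus-derived cells. Treg cells that lack both are often taken for cells induced in the periphery from conventional CD4 T cells, but resting Treg cells can also hold little of either, and neither marker is exclusive. Treg cells further range from a resting state, which recirculates through lymphoid organs by homing receptors such as CCR7, to an activated or effector state with high co-stimulatory receptors.

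The classes were balanced in depth and differed in the makeup of their RNA. They held 2477309 UMIs in Helios-negative cells and 4909775 in Helios-high cells, with medians of 2652 and 2618 UMIs per cell. Median genes per cell were 1018 in Helios-negative cells and 1088 in Helios-high cells, and 822 and 903 after each cell was thinned to 2000 UMIs. Ribosomal protein genes took a median of 42.1% of a Helios-negative cell's UMIs and 35.4% of a Helios-high cell's. In each of the 6 sets this share was larger in the Helios-negative class, with set medians of 38.3 to 45.2% in Helios-negative cells and 32.5 to 39.2% in Helios-high cells. Mitochondrial genes took 1.68% in Helios-negative cells and 1.77% in Helios-high cells. Barcodes present in more than 1 set numbered 63 in the whole table and accounted for 9 Helios-negative and 19 Helios-high cells.

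The share of cells in either class differed between barcode sets. Helios-negative cells were 19.8, 22.5, 24.3, 17.7, 14.7 and 13.1% of the eligible cells of sets 1 to 6, and Helios-high cells 36, 31.9, 29.9, 41.7, 44.6 and 42.7%. Set 3 had the highest share of Helios-negative cells and the lowest share of Helios-high cells. A count of 0 does not show that a cell lacks the transcript: with the same cells thinned to 2000 UMIs, the Helios-negative share was 24.7% in place of 18.9%. Between cells the share with no Ikzf2 UMI was not smaller at higher depth, at 25.8% among cells of 2500 to 4000 UMIs and 21.5% among cells of 2000 to 2500 UMIs. Cells of other types also held Ikzf2 UMIs. Of 43 cells with at least 2 UMIs of Cd79a or Lyz2 in the same depth range, at a median of 2371 UMIs, 34.9% (21 to 50.9%) had a UMI of Ikzf2 and 4.65% (0.568 to 15.8%) had 3 or more, while 55.8% had 0 UMIs of both Ikzf2 and Nrp1. Among the eligible cells, at a median of 2602 UMIs, 76% (74.8 to 77.2%) had at least 1.

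Foxp3, the factor that defines Treg cells, had no common direction between the classes. It stood at 22.2, 21.2, 19, 14.7, 25.9 and 14.2 counts per 1000000 UMIs (CPM) in Helios-negative cells of sets 1 to 6, against 24.2, 17.5, 12.8, 20.7, 17.7 and 21.4 CPM in Helios-high cells. The ranges overlapped, and the Helios-negative class was the higher one in 3 of 6 sets. Pooled over the sets, Foxp3 was at 19.8 CPM in Helios-negative cells and 19.3 CPM in Helios-high cells, 1.02-fold (plain log2 ratio 0.03, interval -0.5 to 0.54). Few cells carried a Foxp3 UMI at this depth. After thinning to 2000 UMIs, the shares were 3.32% (2.25 to 4.71%) of Helios-negative and 3.68% (2.85 to 4.65%) of Helios-high cells. Of the 43 B and myeloid cells 0 had one, and the exact interval allows up to 8.22% there, so the share of single cells did not separate either class from free RNA. Foxp3 lies on chromosome X (7573644 to 7595245, plus strand, mm10). It overlaps the noncoding gene Flicr on the same strand and Ppp1r3f, Gm36995 and Ccdc22 on the other strand. The strand of the authors' counting is not given in the sources used here, so reads of overlapping genes cannot be told apart. Of the genes named by rule and described below, this also touches Bach2 (Bach2os), Il1r2 (Gm16894), Penk (A830012C17Rik), Tnfrsf9 (Camta1), Nav2, Bcl2a1d, Bcl2a1b, Rora, S100a4, Actn1, Swap70, Ebi3, Ikzf4, Ikzf1, Ikzf5, Maf, Tox, Gata3, Il4ra, Irf8, Dusp5, Junb, Lilrb4a, Il6ra, Fyn, Dusp1 and Fkbp5. The genes picked after their values were seen were not looked up.

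Markers of other cell types were found at low levels in both classes, apart from erythroid genes in set 5. Cells with a UMI of Cd79a, Lyz2 or Cd8a had been removed beforehand. Low sums of B cell, myeloid and CD8 T markers are therefore partly set by the rule. The 7 B cell markers in the table summed to 36.7 CPM in Helios-negative cells and 60.9 CPM in Helios-high cells, with set ranges of 29.4 to 46.5 CPM in Helios-negative cells and 39.4 to 74.3 CPM in Helios-high cells. Cd79b, a subunit of the B cell receptor, made up 23.8 CPM in Helios-negative cells and 46.4 CPM in Helios-high cells. The 12 myeloid markers summed to 122 CPM in Helios-negative cells and 174 CPM in Helios-high cells, with set ranges of 70.9 to 157 CPM in Helios-negative cells and 136 to 211 CPM in Helios-high cells. Cst3, the widely expressed protease inhibitor cystatin C, made up 98.5 CPM in Helios-negative cells and 145 CPM in Helios-high cells. Lyz1 was at 0 in both classes. Csf1r was at 0 in Helios-negative cells and had 2 UMIs in Helios-high cells. In Helios-negative cells the CD8 T and NK markers summed to 20.6 CPM, plasma cell markers to 58.9 CPM and erythroid and platelet markers to 58.9 CPM, and in Helios-high cells to 22.8, 57.4 and 77.4 CPM. The erythroid sum ranged over the sets from 0 to 282 CPM in Helios-negative cells and from 8.53 to 270 CPM in Helios-high cells, with set 5 highest in both, and without set 5 it was 27.2 CPM in Helios-negative cells and 33.9 CPM in Helios-high cells. With all cells carrying UMIs of other cell types left out, 37 genes in place of 47 and 308 in place of 396 met the rule for a higher and a lower gene given next. In that alternative fewer genes were measured, 5010 in place of 5977. Among the measured markers of these 5 lists, Cd79b alone was called, and not relative to the median gene.

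A gene was measured when it had at least 100 UMIs over both classes, and called when its pooled level was at least 1.5-fold apart and all 6 sets had 1 direction. Of 5977 measured genes, 47 (0.786%) were called higher in Helios-negative cells and 396 (6.63%) were called lower, 7.41% in either direction. The median gene itself was lower in Helios-negative cells, at a log2 ratio of -0.17. Relative to that median, 94 genes (1.57%) were higher and 223 (3.73%) lower, 5.3% in either direction, so the split of the calls depends on the scaling while the lower genes stay in the majority under both. With ribosomal protein and mitochondrial genes left out of the totals, 90 were higher and 224 lower; the part of the ribosomal share in the results was not tested further. Log2 ratios below are given relative to the median gene unless stated otherwise, and levels and folds are plain CPM. Counts of called list members below are to be set against the shares of all measured genes given here. Of the 47 genes called higher, 23 had all 6 Helios-negative values above all 6 Helios-high values, and of the 396 called lower, 186 had all 6 below. Among all measured genes this held for 0.669% upward and 4.13% downward.

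The highest genes were Dapl1 and Igfbp4, with Ly6c1 after them. Dapl1 (death-associated protein-like 1), a gene of resting T cells, was at 99, 80.4, 69.2, 29.4, 100 and 92.1 CPM in Helios-negative cells of sets 1 to 6, against 7.69, 20.4, 15.6, 1.22, 3.32 and 7.88 CPM in Helios-high cells. Every Helios-negative value exceeded every Helios-high value. Dapl1 spans 59484653 to 59505020 on chromosome 2 and Igfbp4 99041244 to 99054392 on chromosome 11, both on the plus strand of mm10. The pooled levels of 78.3 CPM in Helios-negative and 8.76 CPM in Helios-high cells gave 8.94-fold, a log2 ratio of 3.33 (2.85 to 3.85), and single sets ran from 2.1 to 4.82. Igfbp4, which encodes a secreted protein that binds insulin-like growth factors, was at 376, 262, 266, 141, 93.9 and 170 CPM in Helios-negative cells and at 45.1, 51, 58.3, 17.1, 19.9 and 16.9 CPM in Helios-high cells. The level varied widely between sets in both classes, yet their ranges did not overlap, and the log2 ratio within a set stayed between 2.33 and 3.44 (pooled 238 CPM in Helios-negative and 33.4 CPM in Helios-high cells, 7.12-fold, log2 ratio 3 with interval 2.75 to 3.26). Ly6c1, a GPI-anchored surface antigen of the Ly6 family, was at 118 to 207 CPM (median of the sets 129) in Helios-negative cells and at 11.3 to 38.4 CPM (27.7) in Helios-high cells, 5.15-fold. Ly6c1 has a near-identical neighbour, Ly6c2, and reads may have been divided between them.

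At single-cell level the same genes separated the classes only in part. After thinning to 2000 UMIs, 26.8% (23.9 to 29.8%) of Helios-negative cells and 5.35% (4.35 to 6.49%) of Helios-high cells had an Igfbp4 UMI, against 2.33% (0.0589 to 12.3%) of the 43 B and myeloid cells, where the gene should be scarce. For Dapl1 the shares were 8.31% (6.59 to 10.3%) of Helios-negative and 1.45% (0.948 to 2.12%) of Helios-high cells, and 0 of the 43 B and myeloid cells had one, which allows up to 8.22%. Without thinning, Igfbp4 UMIs were in 32.8% of Helios-negative and 6.35% of Helios-high cells, and Dapl1 UMIs in 9.19% of Helios-negative and 1.73% of Helios-high cells. Most Helios-negative cells thus had no UMI of either gene at this depth.

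The promoters of these 2 genes, which were both called higher, are shown from RefSeq on GRCm38.p6, 250 bases before to 50 after each start, with matches to 3 short motifs in capitals. Dapl1 is chr2:59484403-59484702 and Igfbp4 chr11:99040994-99041293, both on the plus strand.
Dapl1: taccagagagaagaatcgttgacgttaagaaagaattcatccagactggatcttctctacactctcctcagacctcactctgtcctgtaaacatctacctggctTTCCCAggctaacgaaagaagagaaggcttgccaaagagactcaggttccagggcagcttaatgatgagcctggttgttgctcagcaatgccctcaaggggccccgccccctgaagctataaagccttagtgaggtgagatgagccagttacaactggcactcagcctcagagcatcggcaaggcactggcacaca
Igfbp4: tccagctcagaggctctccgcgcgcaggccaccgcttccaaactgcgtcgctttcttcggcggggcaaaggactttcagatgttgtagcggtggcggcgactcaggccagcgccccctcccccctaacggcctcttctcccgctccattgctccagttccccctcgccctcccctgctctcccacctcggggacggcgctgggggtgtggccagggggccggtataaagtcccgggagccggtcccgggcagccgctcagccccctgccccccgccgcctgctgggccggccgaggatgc
The motifs searched on both strands were TGANTCA (AP-1 and BACH factors), CTTTGA (TCF and LEF factors) and TGGGAA (Ikaros family), of which TGANTCA and CTTTGA can share the letters TGA. Dapl1 held 1 match to TGGGAA, read on the other strand as TTCCCA, and Igfbp4 held none of the 3. Among all 32851 mouse promoters of this table and length, 7.81% held TGANTCA, 16% CTTTGA and 25.6% TGGGAA. Promoters were found for 8 of the 12 highest genes (14 promoters, of which 0, 1 and 4 held the motifs in that order) and for 9 of the 12 lowest (11 promoters, with 2, 2 and 6). A match describes letters only and not a site.

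The rest of the 12 highest genes included a homing receptor, a kinase and a chromatin organiser. Txk, a Tec-family kinase downstream of the T cell receptor, was at 86.9 to 126 CPM (median of the sets 116) in Helios-negative cells and 37.8 to 46.7 CPM (41.3) in Helios-high cells, a log2 ratio of 1.58 (1.32 to 1.85). Arl4c, a small GTPase of the ARF family, was at 206, 167, 164, 235, 210 and 181 CPM in Helios-negative cells and at 71.4, 58.3, 68.2, 80.5, 76.4 and 83.3 CPM in Helios-high cells. The ranges did not overlap, and the log2 ratio of Arl4c was 1.26 to 1.66 over the sets (pooled 1.54, 1.34 to 1.74). Satb1, a chromatin organiser of T cells, was at 112 to 205 CPM (120) in Helios-negative and 35.5 to 67.6 CPM (50.4) in Helios-high cells. Ccr7, the receptor that guides cells to T zones, was at 209 to 265 CPM in Helios-negative and 84.2 to 150 CPM in Helios-high cells. Socs3, an inhibitor of cytokine signalling through gp130, was at 88.9 to 152 CPM (116) in Helios-negative cells and 38.4 to 88.6 CPM (59.2) in Helios-high cells. Actn1, Fam101b and Gm12840 were also among the 12. Gm12840 was the 1 of the 12 for which the classes overlapped, since its Helios-high level reached 74.4 CPM in set 2. The 12 had been chosen as the highest called genes, which favours ranges that lie apart. Over all measured genes this held upward for 0.669%.

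The lowest genes included receptors, an anti-apoptotic protein and peptide precursors. Il1r2, the decoy receptor for interleukin-1, was at 2.02, 19, 6.92, 8.81, 0 and 60.2 CPM in Helios-negative cells of sets 1 to 6, against 84.6, 80.2, 88.1, 113, 57.6 and 91.2 CPM in Helios-high cells. The Helios-negative cells of set 6 stood above the Helios-high cells of set 5, and within a set the log2 ratio ran from -5.06 to -0.42 (pooled 13.7 CPM in Helios-negative and 85.5 CPM in Helios-high cells, -2.47, interval -3.02 to -1.96). Klrg1, an inhibitory receptor of terminally activated T cells, was at 1.73 to 17.7 CPM (6.76) in Helios-negative cells and 19 to 54.1 CPM (34.2) in Helios-high cells. Cd83, a membrane protein of activated lymphocytes, was at 24.2, 27.5, 29.4, 38.2, 29.1 and 56.7 CPM in Helios-negative cells and at 103, 150, 127, 162, 99.7 and 158 CPM in Helios-high cells. Its ranges lay far apart, with a log2 ratio of -1.86 (-2.21 to -1.52), and 4.09-fold more in Helios-high cells. Tnfrsf9 (4-1BB, a co-stimulatory receptor) was at 32.3 to 67.6 CPM (36.4) in Helios-negative cells and 119 to 201 CPM (145) in Helios-high cells. Cells with a Tnfrsf9 UMI after thinning were 7.09% of Helios-negative cells, 20.8% of Helios-high cells and 6.98% (1.46 to 19.1%) of the 43 B and myeloid cells (9.3, 25.3 and 14% in that order without thinning). The B and myeloid interval, wide at 43 cells, includes the Helios-negative share and does not settle whether that share is background. For Cd83, which B and myeloid cells express themselves, the shares were 5.87% of Helios-negative cells, 19.1% of Helios-high cells and 30.2% of B and myeloid cells (7.86, 23.8 and 37.2% in that order without thinning).

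**Figure D1:**
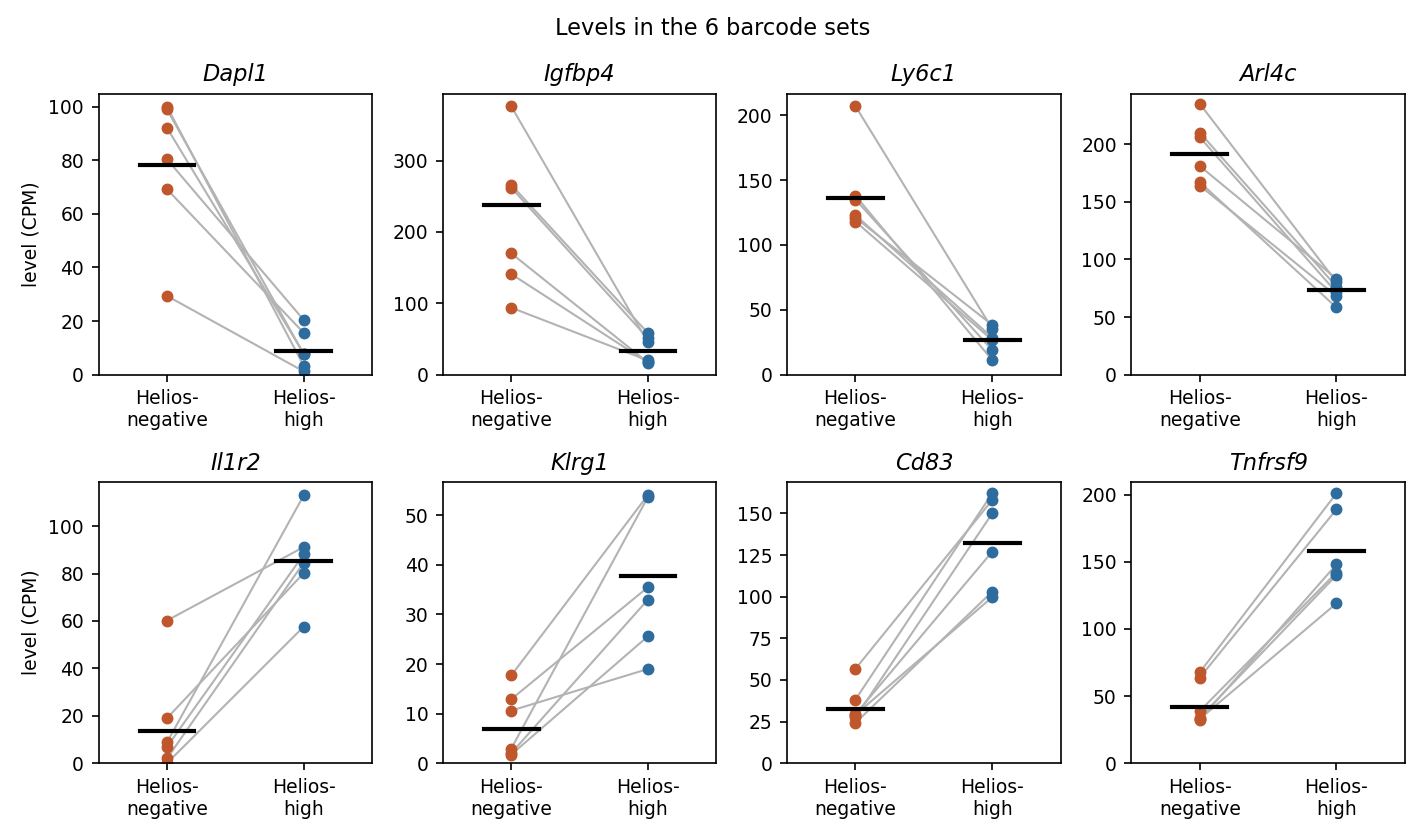
Levels of 4 of the highest and 4 of the lowest genes in Helios-negative (left) and Helios-high cells (right); the y axis is CPM, each point is 1 barcode set, grey lines join the classes of a set and the black bar is the pooled level. Every line runs down for Dapl1, Igfbp4, Ly6c1 and Arl4c and up for Il1r2, Klrg1, Cd83 and Tnfrsf9, since a call needs 1 direction in all 6 sets. Il1r2 alone of the 8 overlaps, through the 60.2 CPM of Helios-negative cells in set 6.

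Bcl2a1d, an anti-apoptotic protein of the BCL-2 family, was at 16.2 to 35.3 CPM (22.7) in Helios-negative cells and 68.2 to 117 CPM (97.8) in Helios-high cells. Its near-identical copy Bcl2a1b was at 57.1 to 152 CPM (73) in Helios-negative and 185 to 294 CPM (253) in Helios-high cells, and reads shared between the copies leave the split uncertain. Penk, the precursor of the enkephalin peptides, was at 17.7 to 50.5 CPM (25.9) in Helios-negative cells and 93.1 to 164 CPM (106) in Helios-high cells. Rln3, the precursor of the peptide relaxin-3, was at 6.92 to 32.4 CPM (14.5) in Helios-negative and 57.1 to 74.2 CPM (59.7) in Helios-high cells. The calcium-binding proteins S100a4 (pooled 65 CPM in Helios-negative and 219 CPM in Helios-high cells) and S100a6 (102 CPM in Helios-negative and 333 CPM in Helios-high cells), the nuclear receptor Rora (17 CPM in Helios-negative and 54.2 CPM in Helios-high cells), the exocytosis protein Stx11 (13.7 CPM in Helios-negative and 45.2 CPM in Helios-high cells) and Nav2, a neuron navigator protein (8.88 CPM in Helios-negative and 38.3 CPM in Helios-high cells), completed the 12. The classes did not overlap for 11 of these 12 genes, Il1r2 being the exception. The 12 had been chosen as the lowest called genes, which favours this. Among all measured genes 4.13% lay apart downward.

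**Figure D2:**
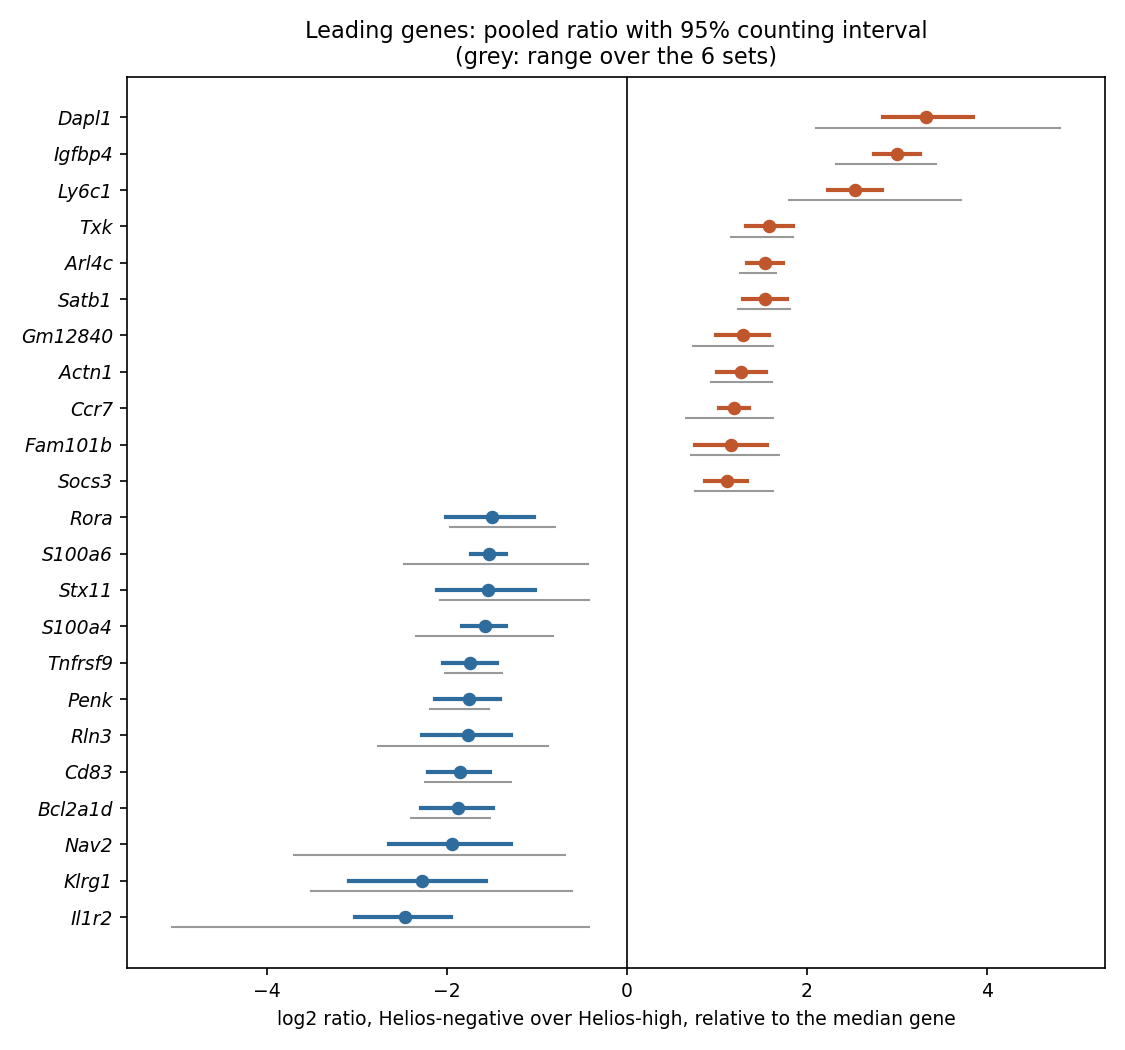
Log2 ratio of Helios-negative over Helios-high, relative to the median gene, for 11 of the 12 highest (orange) and the 12 lowest (blue) genes; thick bars are 95% counting intervals of the pooled ratio and thin grey bars the range over the 6 barcode sets. Dapl1 leads at 3.33 and Il1r2 closes at -2.47, and no range over the sets crosses 0, which the rule for a call favours.

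The levels of some genes were graded by the number of Ikzf2 UMIs in a cell, also across the cells of neither class. The called genes below had been chosen for their difference between the classes, which are the ends of this scale. That their ends lie apart was set by this choice and is no further support. Igfbp4 stood at 238 CPM in Helios-negative cells, 134 CPM in cells with no Ikzf2 but some Nrp1, 126 and 71.5 CPM in cells with 1 and 2 UMIs of Ikzf2, and 55.2, 37.3 and 15.1 CPM in Helios-high cells with 3, 4 and at least 5. Dapl1 was at 78.3, 59.6, 32, 23.1, 10.3, 10.5 and 6.62 CPM, flat between 3 and 4 UMIs within its counting error. Cd83 stood at 32.3, 76, 74.7, 105, 109, 130 and 151 CPM. Just inside and just outside the limit of the Helios-high class, at 3 and 2 UMIs, these genes were at 55.2 and 71.5 CPM for Igfbp4 and 109 and 105 CPM for Cd83. Foxp3 had no such order, at 19.8, 22.4, 24.5, 25.4, 15.4, 20.2 and 21.7 CPM. S100a6, though called lower, was not in order either, at 102, 280, 226, 209, 259, 321 and 396 CPM. Penk was at 108 CPM in cells with 2 UMIs of Ikzf2 and 85.9 CPM in cells with 3. These levels were pooled over the sets. The median activation score, described below, was -0.274 in Helios-negative cells and 0.216 in cells with at least 5 UMIs of Ikzf2. Its part in the graded levels was not tested.

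**Figure D3:**
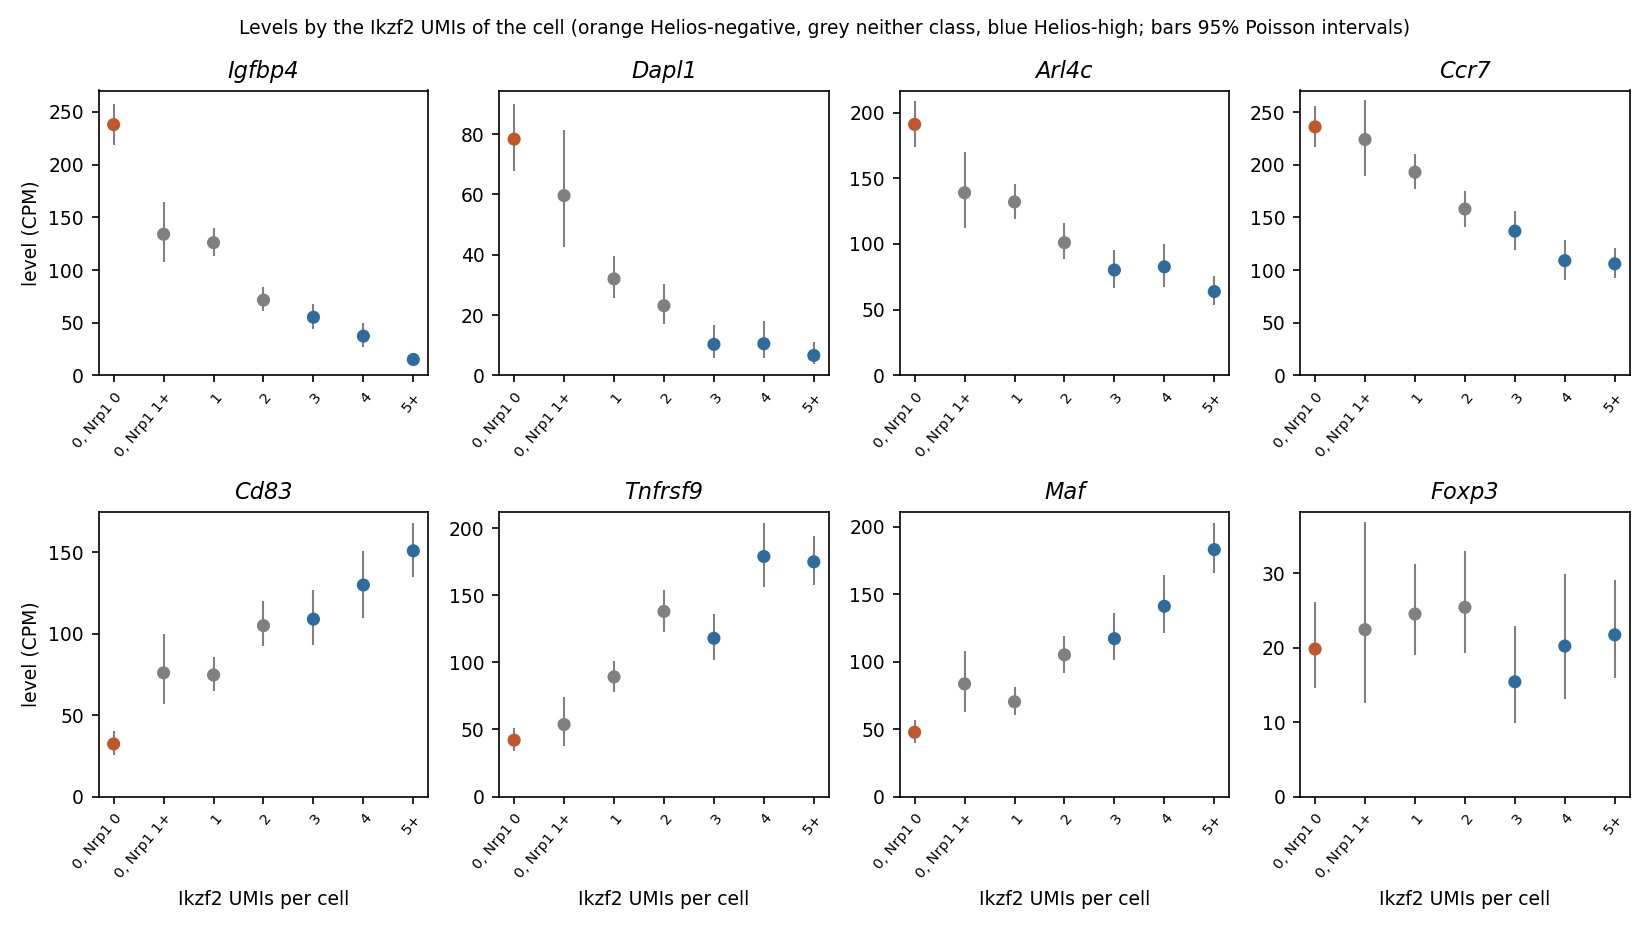
Pooled level in CPM (y axis, from 0) of 8 genes by the Ikzf2 UMIs of the cell (x axis; cells with 0 are divided by Nrp1), with exact Poisson 95% intervals; orange is Helios-negative, grey neither class and blue Helios-high. Igfbp4, Dapl1, Arl4c and Ccr7 are highest in Helios-negative cells, Cd83, Tnfrsf9 and Maf are highest at 4 or at least 5 UMIs, and Foxp3 lies between 15.4 and 25.4 CPM throughout. All but Foxp3 had been called between the classes, so the difference between the ends of the axis was set by choice.

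Genes of Treg identity were called lower in Helios-negative cells in most cases, with Foxp3 and the interleukin-2 receptor alpha chain among the exceptions. Of 22 measured members 14 were called lower and 0 higher (13 and 0 relative to the median gene), at a list median of -0.61 against 0 for all genes. The share of all measured genes called lower was 6.63% (3.73% relative to the median gene). Itgb8, the integrin subunit with which Treg cells activate latent TGF-beta, was at 0 to 11.8 CPM (5.81) in Helios-negative cells and 5.69 to 26.8 CPM (21.1) in Helios-high cells, which overlapped. Swap70, an actin-binding signalling protein, was at 2.02 to 17.6 CPM (10.6) in Helios-negative and 23.1 to 36.6 CPM (28.6) in Helios-high cells, and Ebi3, a subunit of interleukins 27 and 35, was at 15.7 CPM in Helios-negative and 42 CPM in Helios-high cells pooled. Further members were picked after their values were seen, for their place in Treg function: Tnfrsf4 (OX40) was at 325 CPM in Helios-negative and 795 CPM in Helios-high cells, Tnfrsf18 (GITR) at 350 CPM in Helios-negative and 606 CPM in Helios-high cells, Ctla4 at 68.6 CPM in Helios-negative and 117 CPM in Helios-high cells, and Il2ra, which was not called, at 114 CPM in Helios-negative and 119 CPM in Helios-high cells. Il2rb, the beta chain of the interleukin-2 receptor, was at 150 to 220 CPM in Helios-negative cells and 229 to 268 CPM in Helios-high cells; the classes did not overlap, but the fold missed the limit.

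Of the 4 other Ikaros-family genes, all measured, 1 was called, where 7.41% of all measured genes were called in either direction. Ikzf4 (Eos), a partner of Foxp3 in gene silencing, was lower. It was at 46.5, 52.9, 51.9, 58.8, 74.5 and 67.3 CPM in Helios-negative cells and at 91.2, 88.9, 81, 113, 95.3 and 105 CPM in Helios-high cells, without overlap (log2 ratio -0.6, -0.88 to -0.32). The other three were not called: Ikzf3 (Aiolos) was at 41.6 CPM in Helios-negative and 32 CPM in Helios-high cells, Ikzf1 (Ikaros) at 97.3 CPM in Helios-negative and 82.1 CPM in Helios-high cells and Ikzf5 at 17 CPM in Helios-negative and 17.1 CPM in Helios-high cells.

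Markers proposed for peripherally induced Treg cells did not move as 1 group. Of 17 genes listed, 12 were in the table and 5 were measured. Dapl1 and Igfbp4, described above and also known from naive T cells, were called higher, and Maf and Rora lower. Among all measured genes 0.786% were called higher and 6.63% lower. Maf, a factor of interleukin-10-producing and follicular T cells, was at 31.1 to 55.8 CPM (53.8) in Helios-negative cells and 120 to 204 CPM (148) in Helios-high cells, a log2 ratio of -1.5 (-1.79 to -1.22). Tmem176a and Tmem176b, a pair of membrane proteins, had 36 and 42 UMIs in Helios-negative cells and 21 and 38 UMIs in Helios-high cells, or 14.5 and 17 CPM in Helios-negative and 4.28 and 7.74 CPM in Helios-high cells; both were below the limit of 100 UMIs. Ccr6, a chemokine receptor also below it, had 10 UMIs in Helios-negative cells and 48 in Helios-high cells, or 4.04 CPM in Helios-negative and 9.78 CPM in Helios-high cells. Ahr, the aryl hydrocarbon receptor, was measured but not called, at 15.3 CPM in Helios-negative and 34.8 CPM in Helios-high cells and lower in 5 of 6 sets. These 4 genes were picked after their values were seen.

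Calls among resting genes were all upward and among activated genes all downward; both lists share members with the score described below. Of 17 resting and lymphoid-homing genes, 11 were called higher and 0 lower (12 and 0 relative to the median gene), at a list median of 0.82. Il7r and Il6st, not called, were picked after their values were seen. Il7r was lower in 6 of 6 sets (123 CPM in Helios-negative and 160 CPM in Helios-high cells), short of 1.5-fold. Il6st was nearly level, at 31.1 CPM in Helios-negative and 29.1 CPM in Helios-high cells. The other uncalled members had higher pooled levels in Helios-negative cells. Klf2, which drives the genes of recirculation, was at 558 to 762 CPM (710) in Helios-negative cells and 384 to 500 CPM (453) in Helios-high cells, and without set 6 its plain log2 ratio of 0.58 was just under the limit. Of 24 activated and effector genes, 0 were called higher and 19 lower (17 relative to the median), at a list median of -1.14. Over all measured genes 0.786% were called higher and 6.63% lower. Batf, an AP-1 family factor of effector Treg cells, was at 59.3 CPM in Helios-negative and 156 CPM in Helios-high cells. Icos, a co-stimulatory receptor, was at 36.4 to 70.8 CPM (58.4) in Helios-negative cells and 78.2 to 194 CPM (126) in Helios-high cells. Itgb1, an integrin subunit, was at 51.8 to 106 CPM (85.9) in Helios-negative and 162 to 286 CPM (209) in Helios-high cells. Ccr2, a receptor for inflammatory chemokines, was lower in 5 of 6 sets and higher in set 2 (25.4 CPM in Helios-negative and 14.6 CPM in Helios-high cells), so it was not called.

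The TNF receptor and NF-kB list had 13 of 22 measured members called lower and 0 higher (10 relative to the median), at a list median of -0.61. Beside Tnfrsf9, Bcl2a1d and Bcl2a1b these included Tnfaip3 (A20, a feedback inhibitor of NF-kB), at 3.24 to 10.6 CPM (7.44) in Helios-negative cells and 17.5 to 26.8 CPM (21.1) in Helios-high cells. Rel, the c-Rel subunit, was not called and stood at 29.9 CPM in Helios-negative and 51.5 CPM in Helios-high cells. The T cell receptor response genes gave 1 call in 15, a share near the 6.63% of all measured genes called lower. It was Tox, a factor of chronically stimulated T cells, at 81.5 CPM in Helios-negative and 201 CPM in Helios-high cells. Irf8, an interferon regulatory factor, was not called at 19.8 CPM in Helios-negative and 30.3 CPM in Helios-high cells, nor was the phosphatase Dusp5 at 25 CPM in Helios-negative and 37.1 CPM in Helios-high cells. Of the T cell receptor complex and its kinases, 1 of 16 was called higher (Txk) and 3 lower (Icos, Fyn and Zap70). For all measured genes the shares were 0.786% higher and 6.63% lower. Relative to the median gene only Txk and Icos remained, since Fyn (77.1 CPM in Helios-negative and 118 CPM in Helios-high cells) and Zap70 (127 CPM in Helios-negative and 190 CPM in Helios-high cells) lie close to the limit. Without set 1 or 4 (Fyn, plain log2 ratios -0.57 and -0.56) or set 2 or 3 (Zap70, -0.54 and -0.55) they were not called.

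**Figure D4:**
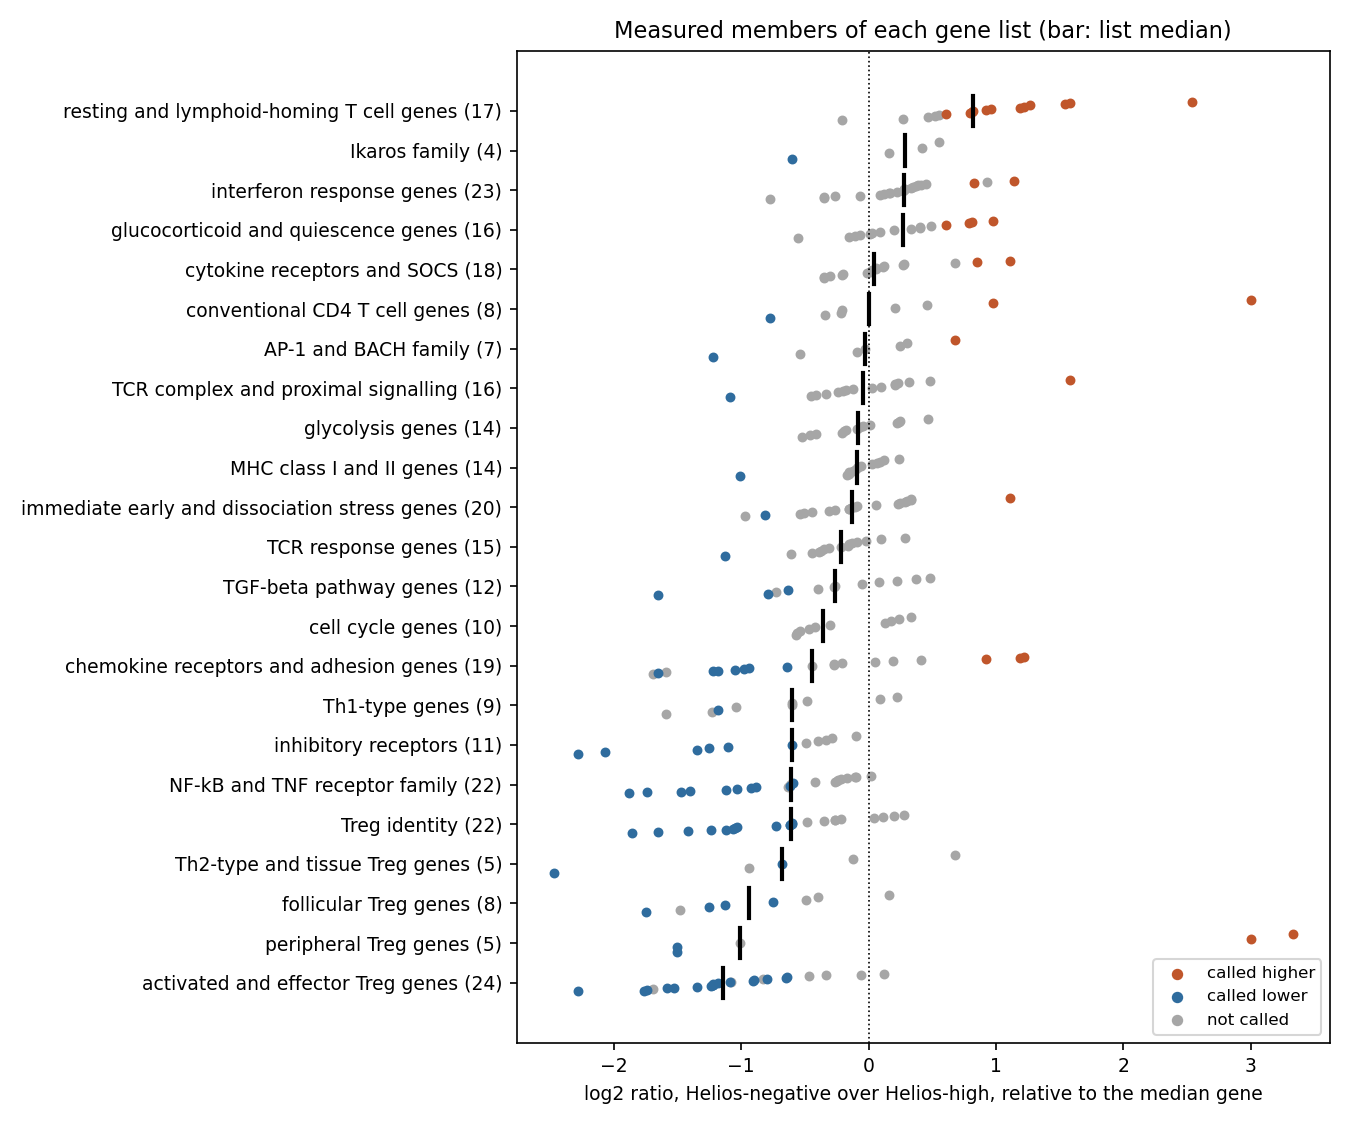
Log2 ratio of Helios-negative over Helios-high, relative to the median gene (x axis), of every measured member of 23 gene lists (rows, number measured in brackets); orange members were called higher on this scale, blue lower, grey not called, and the black bar is the list median. The resting list lies furthest to the right with a median of 0.82 and the activated list furthest to the left with -1.14, while glycolysis (-0.08) and MHC genes (-0.09) lie near 0.

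Of the inhibitory receptors, 7 of 11 were called lower and 0 higher (6 relative to the median). For all measured genes the lower share was 6.63% (3.73% relative to the median gene). Lilrb4a was at 1.73 to 16.2 CPM (9.05) in Helios-negative cells and 14.2 to 58.7 CPM (31.5) in Helios-high cells, which overlapped, with a log2 ratio of -2.07 (-2.83 to -1.38). Pdcd1 (PD-1) was at 20.8 to 47 CPM (30.4) in Helios-negative and 62.7 to 133 CPM (76.1) in Helios-high cells, and Lag3 at 6.35 to 29.4 CPM (16.9) in Helios-negative and 37.9 to 65.9 CPM (49.1) in Helios-high cells. Of the follicular Treg genes 6 of 8 were called lower (4 relative to the median), Tox2 among them at 5.65 CPM in Helios-negative and 21.4 CPM in Helios-high cells. Cxcr5, the receptor that leads cells into follicles, had 20 UMIs in Helios-negative cells and 58 in Helios-high cells, under the limit.

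Lineage genes of T helper cells were lower or not called. For Th1-type genes 3 of 9 were called lower (1 relative to the median, Cxcr3), against 6.63% (3.73%) of all measured genes. Cxcr3, a chemokine receptor induced by T-bet, was at 20.8 to 76.4 CPM (48.7) in Helios-negative cells and 78.2 to 141 CPM (115) in Helios-high cells. Ccl5, a chemokine, was at 28.3, 207, 29.4, 212, 172 and 63.7 CPM in Helios-negative cells and at 158, 137, 365, 194, 608 and 251 CPM in Helios-high cells. Its classes overlapped and its direction changed, higher in Helios-negative cells in sets 2 and 4 and lower in the other 4, so the pooled 110 CPM in Helios-negative and 290 CPM in Helios-high cells was not a call. For Th2-type and tissue Treg genes 2 of 5 were called lower, Il1r2 and Gata3 (77.9 CPM in Helios-negative and 141 CPM in Helios-high cells), while Il4ra, the interleukin-4 receptor, was at 59.7 CPM in Helios-negative and 42 CPM in Helios-high cells and not called. Of 19 chemokine receptor and adhesion genes 3 were called higher (Ccr7 and S1pr1 among them) and 8 lower (7 relative to the median). The matching shares of all measured genes were 0.786% higher and 6.63% lower (3.73% relative to the median gene).

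Genes linked to conventional CD4 T cells, some of which Treg cells also express, showed no common direction. Of 8 measured genes of conventional CD4 T cells, 2 were called higher, Igfbp4 and Cd40lg, and 1 lower, Tnfsf11. The shares of all measured genes were 0.786% higher and 6.63% lower. Cd40lg, the ligand by which helper T cells stimulate B cells, was at 34.3, 33.9, 27.7, 70.5, 32.4 and 60.2 CPM in Helios-negative cells and at 19.8, 27.7, 21.3, 15.9, 24.4 and 29.3 CPM in Helios-high cells. It was higher in 6 of 6 sets, though the ranges overlapped, at a log2 ratio of 0.98 (0.58 to 1.38), and without set 4 its plain log2 ratio of 0.54 was under the limit. Among members below the limit of 100 UMIs, picked after their values were seen, directions differed too. Pdlim4, a cytoskeletal adaptor, had 21 UMIs in Helios-negative cells and 1 in Helios-high cells, and Il4, the interleukin-4 gene, had 3 in Helios-negative cells and 24 in Helios-high cells.

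Of the cytokine receptors and SOCS genes 2 of 18 were called higher and 0 lower under both scalings, where 0.786% of all measured genes were called higher (1.57% relative to the median gene). The 2 were Socs3, given above, and Il6ra, the interleukin-6 receptor, at 52.9 to 99 CPM (81.2) in Helios-negative cells and 35.5 to 60.4 CPM (52.8) in Helios-high cells. Of the TGF-beta pathway genes 4 of 12 were called lower (3 relative to the median): Itgb8, the type I receptor Tgfbr1 (29.1 CPM in Helios-negative and 50.7 CPM in Helios-high cells), and Tgif1 (18.6 CPM in Helios-negative and 36.3 CPM in Helios-high cells) and Pmepa1 (11.3 CPM in Helios-negative and 21.2 CPM in Helios-high cells), both of which limit the pathway. Of 23 interferon response genes 1 was called higher and 0 lower (2 and 0 relative to the median, Gbp2 and Ifit3). The share of all measured genes called lower was 6.63% (3.73% relative to the median gene). Gbp2, a guanylate-binding protein, was at 68.6 CPM in Helios-negative and 43.6 CPM in Helios-high cells, and Oas1a ran the other way in 5 of 6 sets (20.6 CPM in Helios-negative and 39.5 CPM in Helios-high cells).

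Bach2, the gene deleted in 3 of the samples, was higher in Helios-negative cells in 6 of 6 sets. It is a repressor that holds lymphocytes in a resting state and competes with AP-1 factors for DNA. It was at 24.2, 33.9, 29.4, 55.8, 71.2 and 56.7 CPM in Helios-negative cells, against 23.1, 30.6, 11.4, 29.3, 39.9 and 36 CPM in Helios-high cells. The ranges overlapped, and the difference in sets 1 and 2 was small. The pooled 41.2 CPM in Helios-negative and 28.9 CPM in Helios-high cells (1.42-fold) missed the limit, and relative to the median gene it passed, at a log2 ratio of 0.68 (0.3 to 1.06). The median of the plain log2 ratios of the single sets, 0.76, lay above the pooled plain ratio of 0.51. Which sets carry the deletion is not known here, and a 3′ count outside the deleted part would not show it. Bach2 lies on chromosome 4 (32238804 to 32586108, plus strand, mm10), with the antisense gene Bach2os across it. Of the 7 measured AP-1 and BACH genes Junb (291 CPM in Helios-negative and 477 CPM in Helios-high cells) and Batf were called lower, and relative to the median Batf alone, with Bach2 higher. All measured genes had 6.63% called lower, and relative to the median gene 3.73% lower and 1.57% higher.

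Of housekeeping and state lists, quiescence genes had 3 of 16 called higher and 1 lower (4 and 0 relative to the median). Over all measured genes 0.786% were called higher and 6.63% lower. Tsc22d3 (GILZ, induced by glucocorticoids) was at 120 to 301 CPM (161) in Helios-negative cells and 89 to 188 CPM (98.7) in Helios-high cells. Cdkn2d, an inhibitor of cyclin-dependent kinases, was at 105 CPM in Helios-negative and 68.6 CPM in Helios-high cells. Fkbp5, also a target of glucocorticoids, was the 1 called lower, at 17.8 CPM in Helios-negative and 29.3 CPM in Helios-high cells. Cell cycle genes had 3 of 10 called lower, Mcm3, Hmgb2 and H2afz, and 0 relative to the median gene; 10 of the 23 in the table were measured. Glycolysis genes had 0 calls in 14 under both scalings, at a list median of -0.08. Of the immediate early and dissociation stress genes 4 of 20 were called lower and 1 higher (1 and 1 relative to the median, Dusp1 and Socs3). Among 14 MHC genes only Cd74, the invariant chain, was called lower (124 CPM in Helios-negative and 280 CPM in Helios-high cells), and its level of 243 CPM in Helios-negative cells of set 5 overlapped the Helios-high range.

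To see which differences remained among cells closer in activation score, each eligible cell was thinned to 2000 UMIs. It was scored by the mean log-normalised level of 24 activated markers less the mean of 15 resting ones. The cells of each set were then divided into tertiles of this score. Helios-negative cells were 57% in the lower (resting) tertile, 30.8% in the middle and 12.2% in the upper, and Helios-high cells 18.7, 32.6 and 48.7%. In each of the 6 sets the Helios-negative class had the larger share in the lower tertile, 51.4 to 67.6% of Helios-negative against 15.2 to 21% of Helios-high cells. The median score was -0.274 in Helios-negative cells (SD 0.377) and 0.151 in Helios-high cells (SD 0.383). A tertile is a range of a continuous score and not a cell type: 134 Helios-negative and 357 Helios-high cells lay within 0.05 of a limit. The scores of the classes inside a tertile were not compared, so a difference in score can remain there. The score holds Dapl1, Igfbp4, Ly6c1, Txk, Satb1, Ccr7, Klf2, Tnfrsf9, Klrg1, S100a4, Maf and other genes of the lists, so their differences are partly set by it.

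Within tertiles 17 of the 47 higher genes and 106 of the 396 lower genes were still called. Here the mean of the 3 ratios had to reach 1.5-fold and all 6 sets, each averaged over its tertiles, had to share 1 direction. Over all 5977 measured genes this rule called 35 higher and 119 lower. Of the 13 score markers among the higher genes 4 were kept, and of the 16 among the lower genes 3. Arl4c, which is not in the score, was higher in 6 of 6 sets in each tertile. Its levels were 215 CPM in Helios-negative and 102 CPM in Helios-high cells in the lower, 155 CPM in Helios-negative and 69.8 CPM in Helios-high cells in the middle and 160 CPM in Helios-negative and 65.1 CPM in Helios-high cells in the upper tertile, plain log2 ratios of 1.08, 1.15 and 1.3. Over the 1691 genes with at least 500 UMIs the median plain log2 ratio was -0.08, -0.1 and -0.11 in the 3 tertiles. Cd40lg, also outside the score, had plain log2 ratios of 1.05, 0.85 and 0.99 and Socs3 had 0.57, 0.67 and 1.19. Each was higher in at least 5 of 6 sets in the lower and the middle tertile. In the upper tertile Cd40lg rested on 15 UMIs in Helios-negative cells (interval 0.07 to 1.82), too few to read the directions of single sets. Dapl1 and Igfbp4, though score members, stayed apart as well, with 1.82, 2.98 and 3.04 and with 1.73, 1.97 and 2.23. In the upper tertile Dapl1 rested on 6 UMIs in Helios-negative and 6 in Helios-high cells (interval 1.14 to 4.94). Igfbp4 rested there on 12 UMIs in Helios-negative and 21 in Helios-high cells (1.08 to 3.32). No rise over the tertiles is read from so few UMIs.

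Of the lower genes, some stayed apart in every tertile and others did not. Cd83 had plain log2 ratios of -1.31, -1.51 and -2.29 in the lower, middle and upper tertile, lower in 5, 6 and 6 of 6 sets. Ikzf4 had -0.79, -0.65 and -0.69, lower in 5, 5 and 4 sets, and its interval in the upper tertile included 0 (-1.5 to 0.02). Il1r2 had -0.27 (-1.32 to 0.81) in the lower tertile, where it rested on 19 UMIs in Helios-negative and 15 in Helios-high cells, and -3.05 and -1.95 in the middle and upper. In contrast S100a4, a score marker, had 0.33, -0.64 and -0.13, with intervals that included 0 in the lower and upper tertile. Bach2 was higher in the lower tertile (0.65, 0.02 to 1.32, 6 of 6 sets) and had ratios of -0.02 and -0.5 in the middle and upper, where intervals included 0 and the upper rested on 5 UMIs in Helios-negative cells. Foxp3 was at 38.3 CPM in Helios-negative and 18.6 CPM in Helios-high cells in the upper tertile, with an interval of -0.06 to 2.02. It rested there on 11 UMIs in Helios-negative and 44 in Helios-high cells. At so few UMIs the 0.5 UMIs added per set can decide the direction of a set, so the directions of single sets are not read. The upper tertile holds 110 Helios-negative cells in all. The difference between tertiles was not tested.

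**Figure D5:**
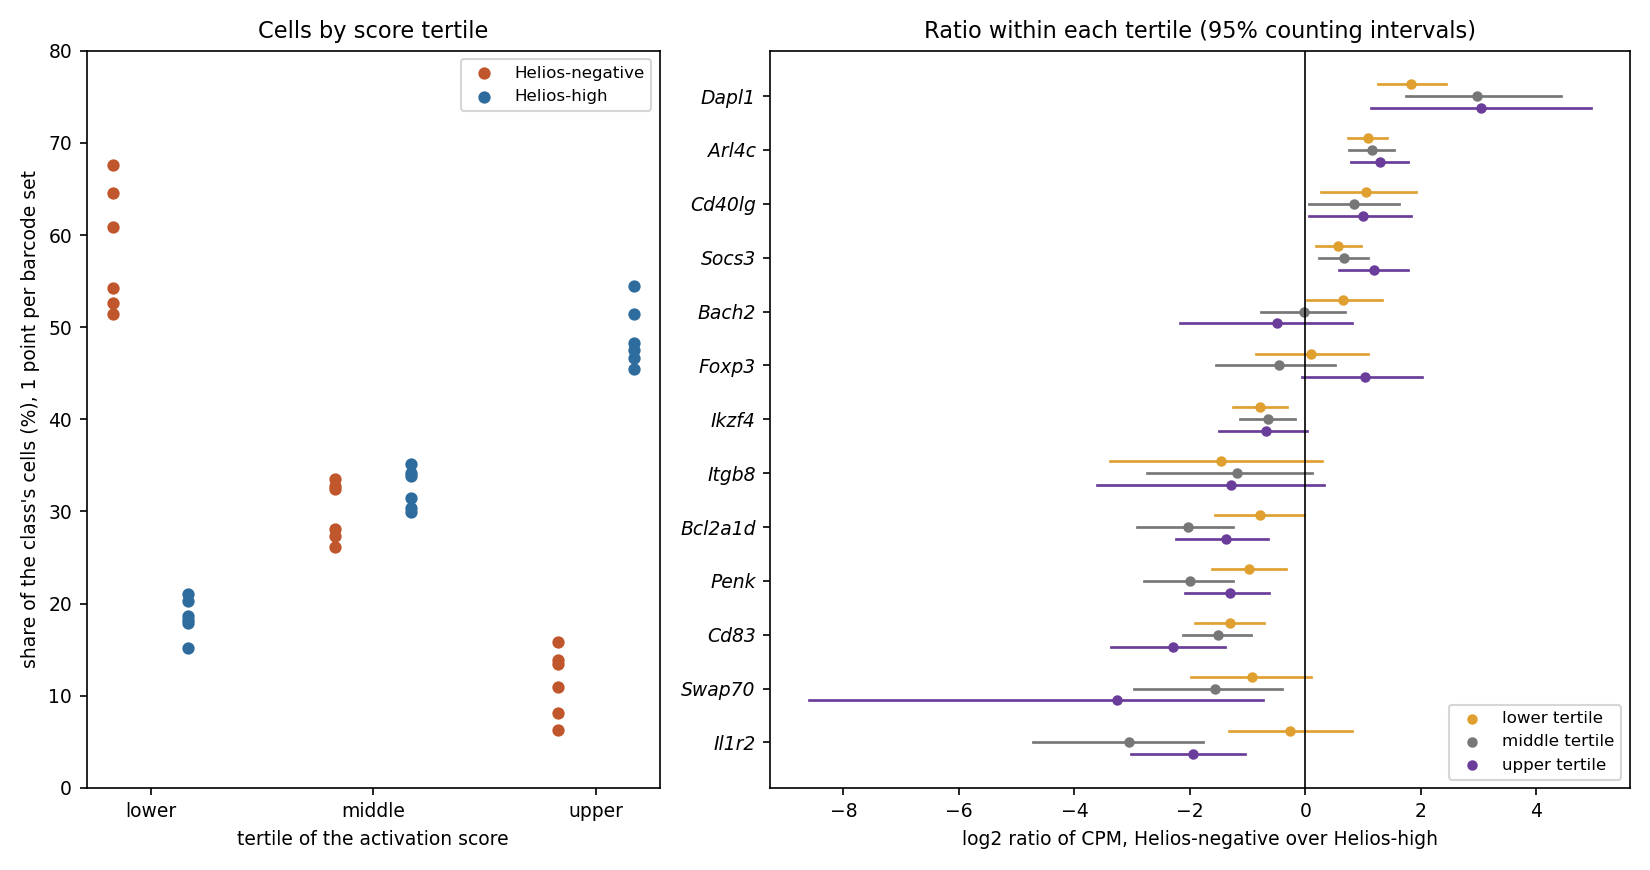
Left, share of each class's cells (y axis, percent) in the lower, middle and upper tertile of the activation score, 1 point per barcode set; right, plain log2 ratio of CPM of Helios-negative over Helios-high for 13 genes inside each tertile, with 95% counting intervals. Helios-negative points lie at 51.4 to 67.6% in the lower tertile, above all Helios-high points there, and Arl4c has intervals above 0 and Cd83 below 0 in all 3 tertiles, while those of Foxp3 include 0.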

How the data were processed

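Single-cell 3′ libraries (Chromium v2 chemistry, per the labels' protocols) of EGFP+ splenic Treg cells were deposited as tables of the whole series. The values used are UMI counts, deposited by the authors as 1 table of 14098 genes and 10685 cells with 25389602 UMIs. A second deposited table holds natural log values of 10464 of the cells, which equal ln(1 + 10000 × count / total) to within 6.2e-15 over 705 genes checked; it served only for its cell limits (at most 2497 genes and 4.99% mitochondrial UMIs). The submitters' processing notes name mm10, FastQC, cutadapt, HISAT2, Cell Ranger and Seurat, with no roles. Barcode suffixes could not be matched to samples, so no test or genotype comparison was made. No doublet caller was run. An alternative left out cells with UMIs of other cell types.

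Counts were summed per class and barcode set and divided by all UMIs of that class. Ratios have exact 95% counting intervals (Clopper-Pearson, on the Helios-negative share of a gene's UMIs), and the direction in a set used a pseudocount of 0.5 UMIs. Added to both classes alike, it raises the level more in the class with fewer UMIs. For a gene with few UMIs it can set the direction toward that class. Scripts ran in Python 3.11.15 with numpy 2.4.6, scipy 1.17.1, pandas 2.3.3 and matplotlib 3.10.9, and were tested on simulated data. Genes named by rule were Foxp3, Bach2, the 12 highest and 12 lowest called genes with at least 200 UMIs, and in each of 28 lists the 4 with the widest ratio among those with at least 100 UMIs, 97 genes in all. Positions come from GENCODE M21, in which 96 of them matched. The classes, members and lists were chosen with earlier results of these data known. In 24 alternatives 1 choice at a time was changed, the authors' limits on genes and mitochondrial UMIs being changed together. Some genes of these lists are not reported here.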

Additional observations from a re-analysis of the deposited data

Results flagged for a closer look

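In 16 of 194 groups of 6 set values examined (97 genes in both classes), the highest or lowest set stood far from the rest; chance alone would set apart about 1 in 20 groups, and the cause was not tested. Each value is followed by that of the nearest set and that at the opposite end.

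In Helios-negative cells, Ly6c1 was at 207 CPM in set 5 (nearest 138, opposite end 118 CPM) and Il1r2 at 60.2 CPM in set 6 (19 and 0 CPM). Set 2 stood high for S100a4 at 112 CPM (67.3 and 47 CPM) and for the chemokine receptor Ccr2 at 25.4 CPM (6.06 and 3.24 CPM). Fkbp5 was at 35.3 CPM in set 4 (19.4 and 12.1 CPM) and Cd74 at 243 CPM in set 5 (125 and 70.8 CPM). The haemoglobin genes Hba-a1 and Hbb-bs were also high in set 5, at 51.8 CPM (18.2 and 0 CPM) and 159 CPM (38.4 and 0 CPM).

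In Helios-high cells, Hbb-bs was high in set 5 as well, at 137 CPM (42.9 and 2.44 CPM). Gm12840 was at 74.4 CPM in set 2 (40.3 and 22.2 CPM), Rln3 at 74.2 CPM in set 5 (61.9 and 57.1 CPM), Penk at 164 CPM in set 1 (118 and 93.1 CPM) and Pdcd1 at 133 CPM in set 4 (82.2 and 62.7 CPM). The kinases Fyn and Zap70 stood high in set 6, at 141 CPM (116 and 109 CPM) and 223 CPM (190 and 176 CPM). Cd8b1 alone stood low, at 9.76 CPM in set 4 (17.7 and 21.9 CPM).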

How the results depend on the processing

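Of the 62 called genes named by rule, 43 were still measured in cells of 2000 to 2500 UMIs, 30 at the 500-UMI limit and 53 to 62 under the other alternatives; none that was measured changed direction. Of the 62, 52 stayed called relative to the median gene, 59 by the median of the sets, 62 within the authors' cell limits, 62 without shared barcodes and 24 as a mean within score tertiles. The 47 genes called higher became 94 relative to the median gene, 90 with totals without ribosomal protein and mitochondrial genes, 22 in cells of 2000 to 2500 UMIs, 104 with at least 20 UMIs, 15 with at least 500 UMIs, 104 with a looser fold limit and 15 at 2-fold. The 396 genes called lower became 223, 224 and 108 under the first 3 of these, 119 as a mean within tertiles, 103 with at least 500 UMIs, 679 with the looser fold limit and 144 at 2-fold. Leaving out each set in turn gave 46 to 53 higher and 411 to 434 lower genes. Of the 47 higher genes 39 to 43 were among them, and of the 396 lower genes 342 to 355. With a set left out, fewer sets had to share a direction, which eases the rule. The Helios-negative share of 18.9% was 16.5% in cells of 2000 to 2500 UMIs, 20.6% in cells of 2500 to 4000 UMIs, 24% with any Nrp1, 24.7% after thinning to 2000 UMIs, and 17.7 to 20% without 1 set. No paired analysis was possible because no column carries the samples' replicate numbers, so the genotypes could not be blocked by them; the classes were compared within each set throughout. Fewer cells, UMIs or genes enter the shallow range and the 500-UMI limit; the cause of the other shifts was not tested. At a median of 2602 UMIs a cell, a count of 0 cannot show that Ikzf2 is absent, and genes with under 100 UMIs could not be compared.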
